A study of Mus musculus with 4 samples.

Results

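The colon of mice given trinitrobenzene sulfonic acid (TNBS) together with ginger extract was set against the colon of mock mice, to see which genes still stood apart from mock at day 7. TNBS is a hapten that provokes colitis in rodents when given with ethanol. The comparison used 1 array of each group. A gene was taken as measured if its intensity, averaged over its probes, was at or above the named-probe median of the mock array (270.5) or of the ginger array (270.25), which held for 9337 of 16637 named genes. A gene was called higher or lower on ginger where the arrays differed at least 2-fold. Probes bright or dim on 1 array alone were set aside first.

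The study used female mice, 24 in all, in 4 groups of 6. Mock mice received vehicle alone, 0.1 ml of 50% ethanol, and their strain is labelled BALB/c. The ginger group received 250 mg/kg TNBS mixed with ginger extract in that vehicle, and its strain is labelled BALC/c, as it is for the TNBS group and for the group given TNBS with zingerone, a phenolic ketone of ginger. The labels state neither the amount of ginger behind the array, since several amounts were given, nor whether the RNA on an array came from 1 mouse or from several. No group received ginger without TNBS. Because each group has 1 array, no difference has an error or a test, and precision is limited by the number of arrays. Ethanol was common to all groups.

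In TNBS colitis, ethanol opens the epithelial barrier, the hapten binds proteins of the mucosa, and neutrophils and monocytes enter the wall. Epithelium and resident cells release CXC and CC chemokines and interleukin-1β, and the transcription factor family NF-κB drives many of these genes. A healthy colon surface keeps a different set of genes active, among them ion transporters, mucins, the antibody transporter Pigr and, in response to microbes and interferons, a constant low level of interferon-stimulated genes.

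Most genes lay close to mock. Of the 9337 measured genes, 145 (1.55%) were at least 2-fold higher on ginger and 101 (1.08%) were at least 2-fold lower, together 246 (2.63%). A 4-fold difference was passed upward by 32 genes and downward by 13. The median log2 difference was 0, the SD over genes was 0.43, and 84.6% of the genes lay within 0.50 of mock on the log2 scale. For comparison, the TNBS array stood at least 2-fold above mock for 5.16% of its 9592 measured genes and below for 4.66% (9.82% in all), and the zingerone array for 1.49% and 1.04% of 9427 (2.52% in all). These comparisons share the mock array, so a gene that was unusual on mock alone appears in all of them.

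**Figure D1:**
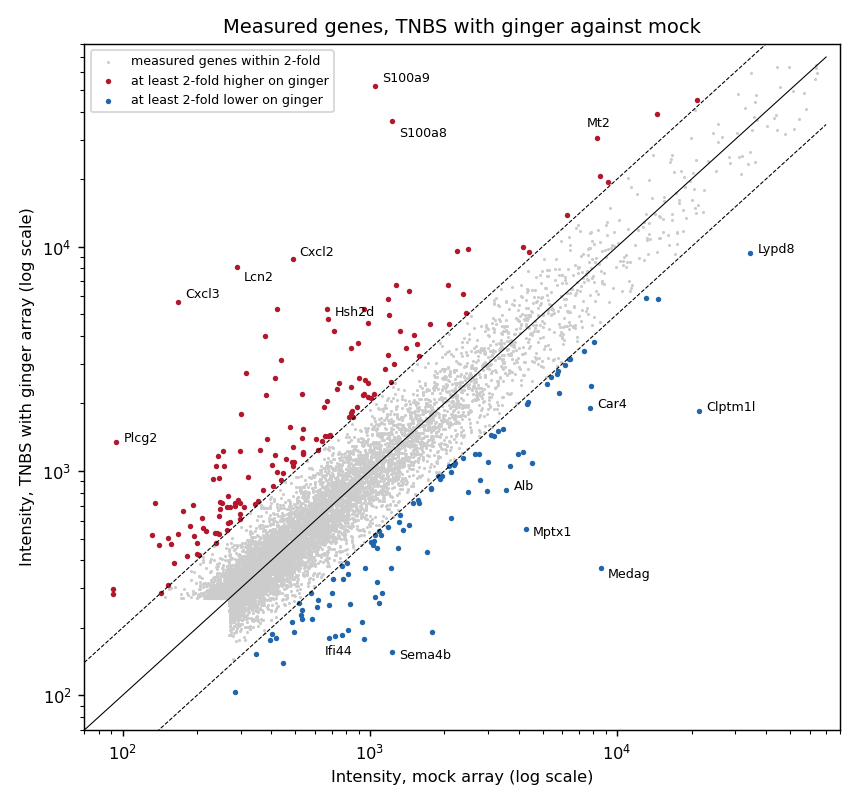
Intensity of each measured gene on the mock array (x axis, log scale) and on the ginger with TNBS array (y axis, log scale), 1 array per group. Points at least 2-fold higher on ginger (145 genes) and lower (101 genes) are coloured, and S100a9 lies farthest above the diagonal, 49.6-fold above mock.

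Single probes carried nearly all of the calls: 142 of the 145 higher genes and 97 of the 101 lower genes rest on 1 probe, against 7384 of all 9337 measured genes. Where 2 probes of a gene could be compared (1626 genes), their ginger-minus-mock log2 differences lay 0.28 apart at the median and 0.88 at the 95th percentile. Of 15 genes whose first probe differed 2-fold, the second did so in the same direction for 1 and had the same sign for 11. Calls were more frequent among bright genes, from 1.23% among the dimmest 1868 measured genes to 5.67% among the brightest 1868. The lowest intensity is 74.25, and any background left in the values would make the folds of dim genes too small. At the edge of the 2-fold threshold, Fermt2 lay just inside (617 on mock and 1234 on ginger) and the interleukin-1 receptor Il1r1 just outside (327 and 650.25, 1.99-fold). On the lower side, Ifi47 lay just inside (1892 and 945.5) and Pigp just outside (1.99-fold lower).

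Gene lists below are counted over all members with a kept probe on the array, bright or dim. A dim gene can reach the brightness threshold only through the array on which it is higher, so that filter favours genes that differ. Over all 16610 such genes, 0.891% were at least 2-fold higher on ginger, 0.608% were lower, and the median log2 difference was 0. A second count takes genes at or above the median on both arrays, of which 1.26% were higher and 0.919% lower among 8157.

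Several chemokines that draw neutrophils through the receptor Cxcr2 were among the genes farthest above mock. Cxcl3 had an intensity of 167.5 on mock, 37402 on TNBS, 5666 on ginger with TNBS and 3801 on zingerone with TNBS. Ginger thus lay 33.8-fold above mock for Cxcl3, while remaining far under the TNBS array. Cxcl2 read 487 on mock, 39028.5 on TNBS, 8787.5 on ginger with TNBS and 6282 on zingerone with TNBS, which puts ginger 18.1-fold above mock. Cxcl1 read 437 on mock, 23605 on TNBS, 3132 on ginger with TNBS and 1116 on zingerone with TNBS, a 7.16-fold higher level on ginger than on mock. Cxcl5, another ligand of this group, was 5.97-fold higher (from 301 to 1798). For these 4 ligands the order of the arrays was the same, with mock lowest and TNBS highest. Ppbp, also a ligand of this group, stayed near mock. It read 305.75 on mock, 356.5 on TNBS, 321 on ginger with TNBS and 264.5 on zingerone with TNBS.

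Some CC chemokines were higher too. Ccl4 read 422 on mock, 22614 on TNBS, 5262 on ginger with TNBS and 6198 on zingerone with TNBS, so that ginger lay 12.5-fold above mock. Its close relative Ccl3 was 2.95-fold higher (from 209 to 617), Ccl9 2.32-fold (from 951 to 2205) and Ccl7 2.01-fold (from 238 to 479.5). Ccl2 lay 1.74-fold above mock, short of the threshold, at 226 and 391.75. Pf4, a chemokine of platelets and megakaryocytes, had an intensity of 2252 on mock and 9543 on ginger, 4.24-fold higher. In all, 9 of 26 chemokines on the array were higher and 1 was lower, with a median log2 difference of 0.18. Among the 19 at or above the median on both arrays, 6 were higher and none was lower. Cxcl10, which interferons induce, was the lower one (583 on mock, 315 on TNBS, 218.5 on ginger with TNBS and 219 on zingerone with TNBS). Its relatives Cxcl9 (602 and 473) and Cxcl11 (219 and 176) read under mock without reaching 2-fold, and Ccl20, an epithelial chemokine for lymphocytes and dendritic cells, read 793 on mock and 523 on ginger.

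The promoters of Cxcl1, Cxcl2 and Cxcl3 show a feature that these genes share and the choice of genes did not use. They come from RefSeq (assembly GRCm38.p6), and the 160 bases before each gene start are printed 5′ to 3′ on the gene's own strand, which is the plus strand for all of them. Capitals mark matches to GGG, any 2 bases and TTTCC on either strand, the letters of a common NF-κB motif.
Cxcl1 (chr5:90891085-90891244): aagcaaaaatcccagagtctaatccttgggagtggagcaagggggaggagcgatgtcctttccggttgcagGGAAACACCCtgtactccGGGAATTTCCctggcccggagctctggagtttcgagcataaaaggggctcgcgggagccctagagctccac
Cxcl2 (chr5:90903739-90903898): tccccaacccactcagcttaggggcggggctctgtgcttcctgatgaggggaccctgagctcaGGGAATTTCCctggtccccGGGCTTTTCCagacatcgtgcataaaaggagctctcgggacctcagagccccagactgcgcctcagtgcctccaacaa
Cxcl3 (chr5:90785941-90786100): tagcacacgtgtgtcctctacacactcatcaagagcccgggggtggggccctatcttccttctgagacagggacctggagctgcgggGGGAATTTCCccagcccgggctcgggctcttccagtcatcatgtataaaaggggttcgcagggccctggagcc
Over the 250 bases before the start, the motif was present in 378 of 27025 promoters (1.40%). Among the 6 higher chemokines with a promoter in the table, 4 held it: Cxcl1, Cxcl2, Cxcl3 and Ccl9. Pf4 and Ccl3 did not, and Ccl4, Cxcl5 and Ccl7 had no promoter there. Cxcl1, Cxcl2 and Cxcl3 are related genes that lie near each other on chr5, so their matches need not be independent. Of 9 chemokines within 2-fold of mock, 1 held it. Cxcl1 has matches that begin 89 and 71 bases before its start, Cxcl2 at 97 and 78, and Cxcl3 at 73. A match to these letters describes the sequence and does not show that a factor binds there.

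Genes of neutrophils included the widest difference from mock. S100a9 and S100a8 form calprotectin, a metal-binding protein that makes up much of the neutrophil cytosol. S100a9 read 1046 on mock, 59655.5 on TNBS, 51921.5 on ginger with TNBS and 41248 on zingerone with TNBS, 49.6-fold higher on ginger than on mock. S100a8 read 1234 on mock, 43027 on TNBS, 36266 on ginger with TNBS and 28462 on zingerone with TNBS, 29.4-fold higher. For both genes mock stood alone at the low end, and the ginger array was nearer to TNBS than to mock. Lcn2, which withholds iron from bacteria and is made by neutrophils and by inflamed epithelium, read 290.25 on mock, 31578.5 on TNBS, 8152 on ginger with TNBS and 7699.75 on zingerone with TNBS, 28.1-fold above mock. Lcn2 was well lower on ginger than on TNBS, while the calprotectin genes were only a little lower. S100a9 and S100a8 were very bright on both of these arrays, and very bright values carry mostly rank. Whether this narrowed their gap between TNBS and ginger, and so widened the contrast with Lcn2, was not tested.

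Other neutrophil genes followed with smaller differences. Wfdc21 was 10.7-fold higher (from 376.5 to 4013) and the protease inhibitor Stfa1 5.32-fold (from 135 to 718). The lectin receptor Clec4d was 4.82-fold higher (from 254 to 1224.5), and Retnlg was 3.27-fold higher (from 2073 to 6773). The collagenase Mmp8 read 162 on mock, 4446 on TNBS, 387.5 on ginger with TNBS and 342 on zingerone with TNBS, 2.40-fold higher, and the gelatinase Mmp9 was 2.61-fold higher (from 265 to 691). In all, 9 of 22 neutrophil markers on the array were at least 2-fold higher, none was lower, and the median log2 difference was 0.40. Of the 10 that reached the median on both arrays, 5 were higher. Granule and receptor genes that define the cell were close to mock and mostly dim: Mpo read 221 on mock and 212 on ginger, Ngp 194 and 179.75, Csf3r 165 and 178, Cxcr2 217 and 257, and Itgam 575 and 462. The list's summed intensity was 11906 on mock, 222434 on TNBS, 115804 on ginger with TNBS and 93811 on zingerone with TNBS, and on ginger S100a8 and S100a9 make up most of it. In tissue RNA, fewer or more cells of a type and less or more RNA per cell cannot be told apart.

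**Figure D2:**
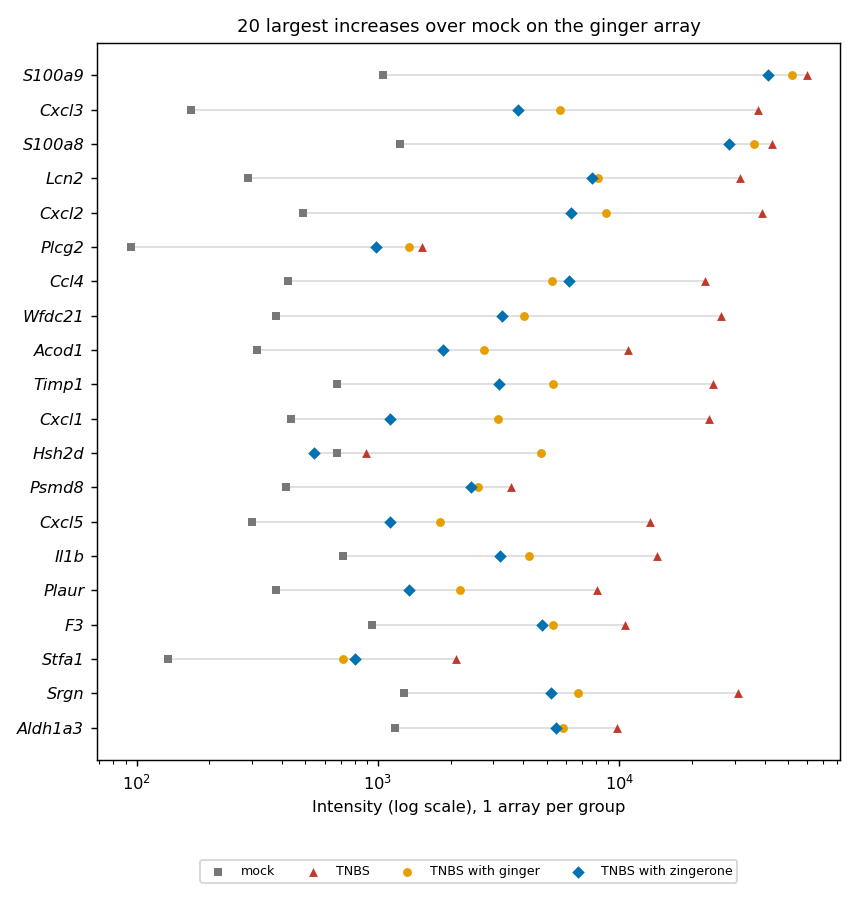
Intensity (x axis, log scale) of the 20 genes farthest above mock on ginger with TNBS, with 1 symbol per array for mock, TNBS, ginger with TNBS and zingerone with TNBS. The ginger symbols lie 4.93-fold (Aldh1a3) to 49.6-fold (S100a9) to the right of mock, and Hsh2d is the gene whose TNBS and zingerone symbols sit beside mock.

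Monocyte and macrophage markers differed less. Cd14, the co-receptor for bacterial lipopolysaccharide, read 1322 on mock, 28071 on TNBS, 4222 on ginger with TNBS and 4097 on zingerone with TNBS, 3.19-fold higher on ginger. The Fc receptor Fcgr3 was 2.16-fold higher (from 488 to 1053). These were the 2 called of 19, with none lower and a median log2 difference of 0.06. Resident macrophage genes read near or under mock: C1qa 468.5 and 465, C1qb 531 and 533.5, C1qc 445 and 269, and Adgre1 350.25 and 222. Acod1, which makes itaconate in activated macrophages, read 315 on mock, 10858 on TNBS, 2745 on ginger with TNBS and 1849 on zingerone with TNBS and lay 8.72-fold above mock. Srgn, a proteoglycan of the granules of blood cells, was 5.27-fold higher (from 1276.5 to 6729). Plcg2, a phospholipase of immune receptor signalling, read 94.5 on mock, 1513.5 on TNBS, 1349.5 on ginger with TNBS and 978 on zingerone with TNBS. Its 14.3-fold ratio of ginger to mock rests on a mock value close to the lowest intensity of the arrays.

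Some genes of the interleukin-1 pathway were higher and others lower. Il1b, which encodes the main secreted ligand, read 719 on mock, 14298.5 on TNBS, 4222 on ginger with TNBS and 3196 on zingerone with TNBS, 5.87-fold above mock on ginger. The decoy receptor Il1r2, which binds the ligand without signalling, read 233 on mock, 6346.5 on TNBS, 917 on ginger with TNBS and 821 on zingerone with TNBS, 3.93-fold higher. The receptor antagonist Il1rn was 2.04-fold higher (from 854 to 1746), and the alarmin Il33 2.64-fold (from 404 to 1068). The signalling receptor Il1r1 lay just short of 2-fold, at the values given above. Ligand, decoy, antagonist and receptor all read above mock, and for each of them the TNBS array was the highest. The signalling adaptors Myd88 (1062 and 903), Traf6 (271 and 238) and Irak1 (653 and 574) lay within 2-fold, a little under mock.

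Il18 and Casp1 were lower. Il18, an epithelial cytokine of the same family, read 2769 on mock, 495 on TNBS, 1190.38 on ginger with TNBS and 1862 on zingerone with TNBS, 2.33-fold lower on ginger than on mock. Casp1, the protease that activates both interleukin-1β and interleukin-18, read 3081.5 on mock, 1119 on TNBS, 1453 on ginger with TNBS and 1626 on zingerone with TNBS, 2.12-fold lower. Over the list, 4 of 19 genes were higher and 2 were lower, with a median log2 difference of 0.17. With the 9 members bright on both arrays the counts were 3 and 2 and the median was -0.19.

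No gene of NF-κB itself was called. Nfkb1 read 370 on mock, 362 on TNBS, 302 on ginger with TNBS and 413 on zingerone with TNBS, and Rela 1020 on mock, 1073.5 on TNBS, 927 on ginger with TNBS and 913 on zingerone with TNBS, and neither differed 2-fold between any of these arrays and mock. The subunit gene Nfkb2 did differ on TNBS, at 1174 on mock, 4129 on TNBS, 1803 on ginger with TNBS and 1345 on zingerone with TNBS. Its ginger value was 1.54-fold of mock. The feedback inhibitor Tnfaip3 lay 1.56-fold above mock (from 542 to 848), the largest difference among 14 members on the array, whose median was 0.00. On the TNBS array 3 of these members were at least 2-fold above mock. Nfkbia, the classic inhibitor that NF-κB itself induces, was set aside as bright on TNBS alone. It read 2475 on mock, 13116 on TNBS, 3021 on ginger with TNBS and 2249 on zingerone with TNBS, so its ginger value was 1.22-fold of mock.

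Of 19 inflammatory cytokines and effectors outside these families, 14 read above mock and 1 was called. Il11, a cytokine of injured stroma, read 447 on mock and 788 on ginger, and Csf3, the granulocyte growth factor, 188.5 and 327. Osm read 925 and 1514. Tnf read 370 on mock, 624 on TNBS, 455 on ginger with TNBS and 367 on zingerone with TNBS, within 2-fold on ginger. Il6 passed 2-fold (96.1 on mock, 755 on TNBS, 212 on ginger with TNBS and 183 on zingerone with TNBS) but was under the median on both mock and ginger and is not counted as measured. Nos2 (154 and 125) and Ptgs2 (174 and 243) were likewise under the median. Il6 was the gene called, and the list's median log2 difference was 0.30.

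Genes that break down and remodel matrix lay above mock as a list. Timp1, an inhibitor of matrix metalloproteinases, read 674 on mock, 24360 on TNBS, 5296 on ginger with TNBS and 3168 on zingerone with TNBS, 7.86-fold higher on ginger. Plaur, the urokinase receptor, read 379 on mock, 8043 on TNBS, 2176 on ginger with TNBS and 1347 on zingerone with TNBS, 5.74-fold higher. The stromelysins Mmp10 (from 248.5 to 676, 2.72-fold) and Mmp3 (from 445 to 983, 2.21-fold) and the aggrecanase Adamts4 (from 194 to 511, 2.64-fold) were also higher. With Mmp8 and Mmp9, which the neutrophil list holds too, 7 of 17 members were higher and none was lower, at a median log2 difference of 0.68. Of the 10 members bright on both arrays, 3 were higher. Proteases that act in resting stroma, Mmp2 (1075.5 and 1011) and Mmp14 (311 and 310.25), were close to mock.

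Stromal matrix genes differed less. Spp1, osteopontin, was the 1 called of 25, at 176 on mock, 2691.5 on TNBS, 661 on ginger with TNBS and 483 on zingerone with TNBS, 3.76-fold higher on ginger. The median of the list was 0.27. The basement membrane collagens Col4a1 (602 and 961) and Col4a2 (1955 and 2838), Sparc (7864 and 11570.2) and Vim (3388 and 6446) read above mock, and the fibrillar collagen gene Col1a2 (1888 and 1147) read under it, all within 2-fold. Of 17 endothelial markers none was called, with a median of 0.13. Plvap had the largest difference of them (1390.5 and 916), and the adhesion molecule Icam1 read 348.5 and 518.5. F3, tissue factor, which starts coagulation, was 5.60-fold above mock (from 943 to 5281.5).

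Some epithelial genes linked to wounding were higher. Krt7, a keratin of simple ducts that is sparse in normal colon, read 2500 on mock, 12546 on TNBS, 9716 on ginger with TNBS and 7581 on zingerone with TNBS, 3.89-fold higher on ginger. Krt18, a main keratin of the colon lining, read 8565 on mock, 18134 on TNBS, 20561.5 on ginger with TNBS and 13116 on zingerone with TNBS, 2.40-fold higher, with ginger the highest of the 4 arrays. Sprr2h (from 187 to 571.5, 3.06-fold) and Sprr1a (from 485 to 1100.25, 2.27-fold), proteins of cornified envelopes, and Anxa1 (from 6250 to 13791, 2.21-fold), a phospholipid-binding mediator of resolution, were higher as well. Together with Il33, 6 of 20 genes of this list were higher and none was lower, at a median of 0.38, and 5 of the 16 bright on both arrays were higher. Krt19 (19771 and 19702) and Ly6a (14230.2 and 13941) lay at mock. Emp1, a membrane protein of surface epithelium, was 3.31-fold higher (from 747 to 2471). Among 15 tight junction genes, Cldn4 alone was called (from 1219 to 2495, 2.05-fold), and the list's median was 0.02. Aldh1a3, which makes retinoic acid, was 4.93-fold higher (from 1180.5 to 5821.5).

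Stress response genes were higher in part. Ier3, an early gene of growth factor and cytokine signalling, read 1435 on mock, 16497.5 on TNBS, 6339 on ginger with TNBS and 3200 on zingerone with TNBS, 4.42-fold above mock. The phosphatase Dusp1, which switches off MAP kinases, was 4.14-fold higher (from 533 to 2209), Gadd45b 3.46-fold (from 359 to 1241), the nuclear receptor Nr4a1 2.55-fold (from 271.5 to 693) and Klf2 2.13-fold (from 639.75 to 1359.5). These were the 5 higher members of 26, none was lower, and the median was 0.13. Fos (364 and 450.455), Jun (9445.5 and 9907) and Egr1 (410.5 and 645), the members most used as early markers, lay within 2-fold of mock.

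Of 17 targets of NRF2, the regulator of antioxidant genes, Hmox1 was called (439 on mock, 1957 on TNBS, 908.5 on ginger with TNBS and 688 on zingerone with TNBS, 2.07-fold on ginger). The list's median was 0.35, and glutathione reductase Gsr (1476.5 and 2833), the iron store subunit Fth1 (6825 and 12093) and the glutathione synthesis subunit Gclm (1670.25 and 2901.5) came next. Of 18 genes of hypoxia and glycolysis, 2 were higher, with a median of 0.35. Adm, the vasodilator adrenomedullin, was 2.19-fold higher (from 268 to 585). Ndrg1 has 2 probes, which read 1594 and 1430.25 on mock and 5814 and 2824 on ginger, a mean 2.68-fold higher.

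Interferon-stimulated genes lay under mock. Of 23 on the array, 10 were at least 2-fold lower on ginger, none was higher, and 21 read under mock, with a median log2 difference of -0.68. Of the 15 at or above the median on both arrays, 5 were lower, with a median of -0.67. Ifi44 read 949 on mock, 345 on TNBS, 178.5 on ginger with TNBS and 375 on zingerone with TNBS, 5.32-fold lower on ginger. Ifit3, an RNA-binding antiviral protein, read 768.5 on mock, 277.5 on TNBS, 186 on ginger with TNBS and 346 on zingerone with TNBS, 4.13-fold lower. Isg15, a ubiquitin-like modifier, read 1066.5 on mock, 719 on TNBS, 321 on ginger with TNBS and 434.5 on zingerone with TNBS, 3.32-fold lower. On all 3 genes ginger was the lowest array.

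The other called members had smaller differences. The interferon-inducible GTPases Igtp (1306 on mock and 455 on ginger), Iigp1 (534 and 218), and Gbp2 (1367 and 543) were 2.87-fold, 2.45-fold and 2.52-fold lower, and Ifi47 sat at the threshold. Oasl1 was 2.35-fold lower, Ifit1 2.32-fold and Ifit2 2.26-fold. Not every interferon gene was lower: Mx1 (242 and 256), Oas3 (304 and 308) and Oas1a (441.5 and 409) were near mock. The transcription factors Irf7 (2332.5 and 1452) and Irf1 (2476 and 1247.5) read lower, with Irf1 just short of 2-fold. On the TNBS array 4 of the 23 genes were lower than mock, with a median of -0.58, and on zingerone 9, with a median of -0.82. All these values use the same mock array. Irgm2, another interferon-inducible GTPase, was set aside as bright on mock alone, at 2062 on mock and 353, 496 and 405.5 on TNBS, ginger and zingerone.

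**Figure D3:**
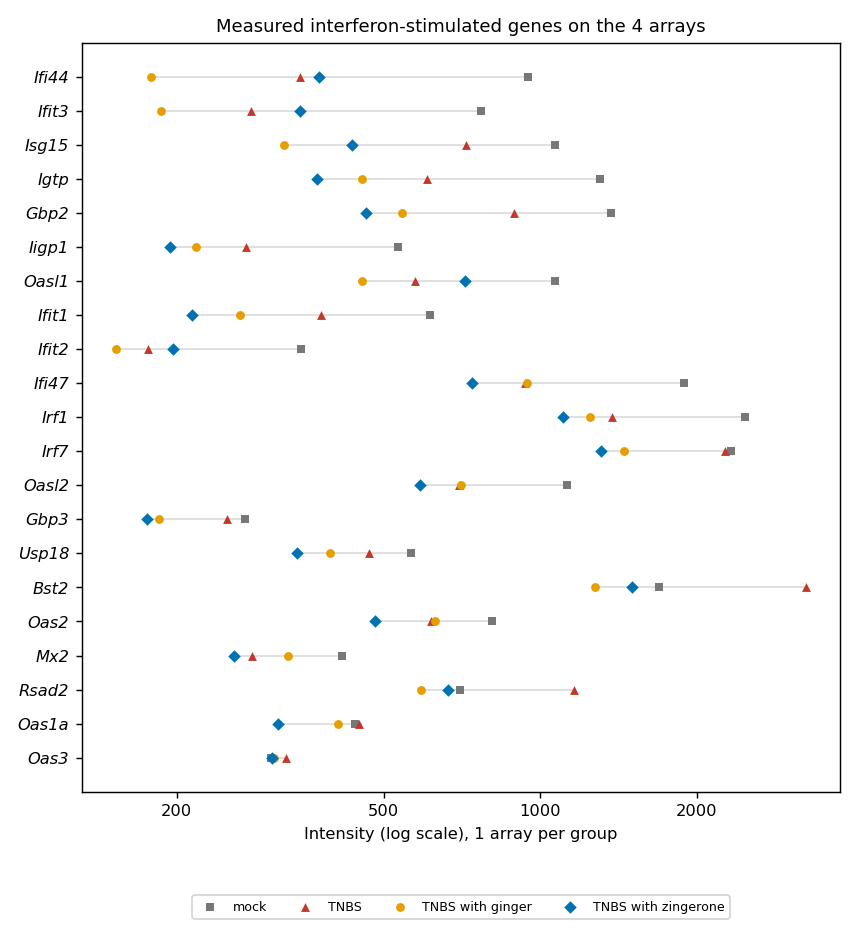
Intensity (x axis, log scale) of measured interferon-stimulated genes, with 1 symbol per array for mock, TNBS, ginger with TNBS and zingerone with TNBS. The ginger symbol lies left of mock for most genes, by 5.32-fold for Ifi44, and close to mock for Oas3.

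Promoters of Isg15, Ifit1 and Ifit3 are shown as examples of lower genes that hold a match to a known response element, which not all lower genes do. The sequences are again the 160 bases before the RefSeq gene start (GRCm38.p6), on the gene's strand, which is minus for Isg15 and plus for Ifit1 and Ifit3. Capitals mark matches to GAAA, any 2 bases and GAAA on either strand, the core of the interferon-stimulated response element.
Isg15 (chr4:156200819-156200978): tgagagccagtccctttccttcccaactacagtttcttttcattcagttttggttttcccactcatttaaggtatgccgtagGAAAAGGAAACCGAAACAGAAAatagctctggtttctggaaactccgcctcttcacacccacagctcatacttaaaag
Ifit1 (chr19:34640729-34640888): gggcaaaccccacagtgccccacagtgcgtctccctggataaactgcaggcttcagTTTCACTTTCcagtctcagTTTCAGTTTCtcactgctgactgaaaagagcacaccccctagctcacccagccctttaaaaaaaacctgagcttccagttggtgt
Ifit3 (chr19:34583369-34583528): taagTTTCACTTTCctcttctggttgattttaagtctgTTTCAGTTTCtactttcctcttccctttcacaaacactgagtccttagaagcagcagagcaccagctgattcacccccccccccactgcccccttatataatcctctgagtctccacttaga
Isg15 has overlapping matches that begin 78, 72 and 66 bases before the start. Ifit1 has matches at 104 and 85 and Ifit3 at 156 and 122. In the 250 bases before the start, 821 of 27025 promoters (3.04%) hold this motif, and 10 of 17 measured interferon-stimulated genes with a promoter in the table do. Of the 9 lower genes with a promoter 5 held it, and of the 8 genes within 2-fold of mock 5 held it. The lower genes without a match were Ifi44, Oasl1, Ifit2 and Ifi47.

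Antigen presentation genes read lower in part. Cd74, the invariant chain that guides MHC class II molecules, read 4323.5 on mock, 1141 on TNBS, 1979 on ginger with TNBS and 2559.5 on zingerone with TNBS, 2.18-fold lower on ginger. It was the 1 called of 7 class II genes, whose median was -0.41, and H2-Aa read 11456.5 on mock and 6719 on ginger while H2-Eb1 read 3409.75 and 3554. Psmb9, an interferon-inducible subunit of the immunoproteasome, read 3683 on mock, 1289.5 on TNBS, 1056 on ginger with TNBS and 898 on zingerone with TNBS, 3.49-fold lower. The guanylate-binding protein Gbp2b read 2133 on mock, 928 on TNBS, 615 on ginger with TNBS and 583 on zingerone with TNBS, 3.47-fold lower. Chosen after their values were seen, Psmb10, another immunoproteasome subunit (from 5734 to 2692), was 2.13-fold lower and Uba7, the enzyme that activates Isg15 (from 2797 to 912), was 3.07-fold lower. Psmd8, a subunit of the proteasome's regulatory cap, went the other way at 415 on mock, 3569 on TNBS, 2598 on ginger with TNBS and 2422 on zingerone with TNBS, 6.26-fold higher. It rests on 1 probe, and mock alone was low.

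Lymphocyte markers gave no calls. Of 16 T and NK cell markers, none was 2-fold apart, the median was -0.01, and Cd3e read 625 on mock and 635 on ginger. Cd3d had the largest difference (276 and 191, a log2 difference of -0.53), which became -1.16 when each array's 5th percentile was subtracted. Of 13 B and plasma cell markers, none was called, the median was -0.15, and Jchain, which joins polymeric antibodies, had the largest difference (4924 and 2947.5). Their levels beside the interferon genes are given as measured, and whether cell numbers had a part in the lower interferon genes was not tested.

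Several host defence genes of the epithelium were lower. Mptx1, a pentraxin of the colon epithelium, read 4270.25 on mock, 188 on TNBS, 553 on ginger with TNBS and 812 on zingerone with TNBS, 7.72-fold lower on ginger than on mock. Lypd8, which keeps flagellated bacteria away from the surface, read 34475 on mock, 11312 on TNBS, 9370.25 on ginger with TNBS and 26942 on zingerone with TNBS, 3.68-fold lower. Dmbt1, a secreted scavenger receptor, read 14577 on mock, 2609.75 on TNBS, 5831 on ginger with TNBS and 9768 on zingerone with TNBS, a log2 difference of -1.32. On Lypd8 ginger lay under the TNBS array, and on Mptx1 and Dmbt1 above it. Duoxa2, needed to mature the oxidase that makes hydrogen peroxide at the surface, sat at the threshold (from 2095 to 1048). In all, 4 of 17 genes were lower and 1 was higher, Lcn2, with a median of -0.16. By sign alone the list was split, with 8 members above mock and 9 under it. Wfdc2 (13941 and 25701) and Slpi (32885.5 and 41639.5) were among those above. The median was 0.10 over the 15 measured members and -0.27 over the 14 bright on both arrays. Saa3, an acute phase protein, read 3761 on mock, 50859 on TNBS, 6609.75 on ginger with TNBS and 7209.75 on zingerone with TNBS, 1.76-fold of mock and so within 2-fold on ginger.

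Surface colonocyte genes gave a split picture. Car4, a carbonic anhydrase of the apical membrane, read 7778.5 on mock, 968 on TNBS, 1915 on ginger with TNBS and 2981 on zingerone with TNBS, 4.06-fold lower on ginger. Pigr, which carries antibodies into the lumen, read 2977 on mock, 302 on TNBS, 813.5 on ginger with TNBS and 792.5 on zingerone with TNBS, 3.66-fold lower. The chloride-bicarbonate exchanger Slc26a3 read 2377 on mock, 418 on TNBS, 1145 on ginger with TNBS and 3704 on zingerone with TNBS, 2.08-fold lower, and the potassium pump subunit Atp12a was 2.22-fold lower (from 3173.5 to 1427). Other transport genes lay near mock. The water channel Aqp8 read 1451 on mock, 849 on TNBS, 1494 on ginger with TNBS and 1373 on zingerone with TNBS, and Car1 read 555 on mock, 357 on TNBS, 660 on ginger with TNBS and 1344 on zingerone with TNBS. The hormone precursor Guca2a read 20660 on mock, 2772 on TNBS, 14803 on ginger with TNBS and 34596 on zingerone with TNBS, within 2-fold of mock on ginger. Of 28 colonocyte markers, 5 were lower (Car4, Lypd8, Pigr, Atp12a and Slc26a3), Emp1 was higher, and the median was -0.19. Their summed intensity was 121571 on mock, 56111 on TNBS, 80473.5 on ginger with TNBS and 123508 on zingerone with TNBS. The brightest members weigh most in this sum. On mock these were Lypd8 (34475, against 9370 on ginger) and Guca2a. Whether a different share of surface cells had a part in these values was not tested.

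Among goblet cell genes there was 1 call. It was Muc13, a membrane mucin with 2 probes, which read 1343.5 and 21826 on mock and 637 and 10828 on ginger, and their mean was 2.06-fold lower. The secreted mucin Muc2 has 4 probes that differ in sign. The brightest of them read 9640.25 on mock, 3420.25 on TNBS, 9445.5 on ginger with TNBS and 6773 on zingerone with TNBS, so ginger was close to mock. Tff3 (64236.5 and 59389.7) and Agr2 (51505 and 49395), both secretory proteins of goblet cells, were bright on both arrays, 2 defining genes of the labelled tissue. Of 21 members 1 was lower, none was higher, and the median was -0.22. Gsdmc4, a pore-forming gasdermin of differentiated epithelium, read 4101 on mock, 416.5 on TNBS, 2414 on ginger with TNBS and 1446 on zingerone with TNBS and was the farthest from mock among 6 gasdermins, none of which was called and whose median was -0.09.

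**Figure D4:**
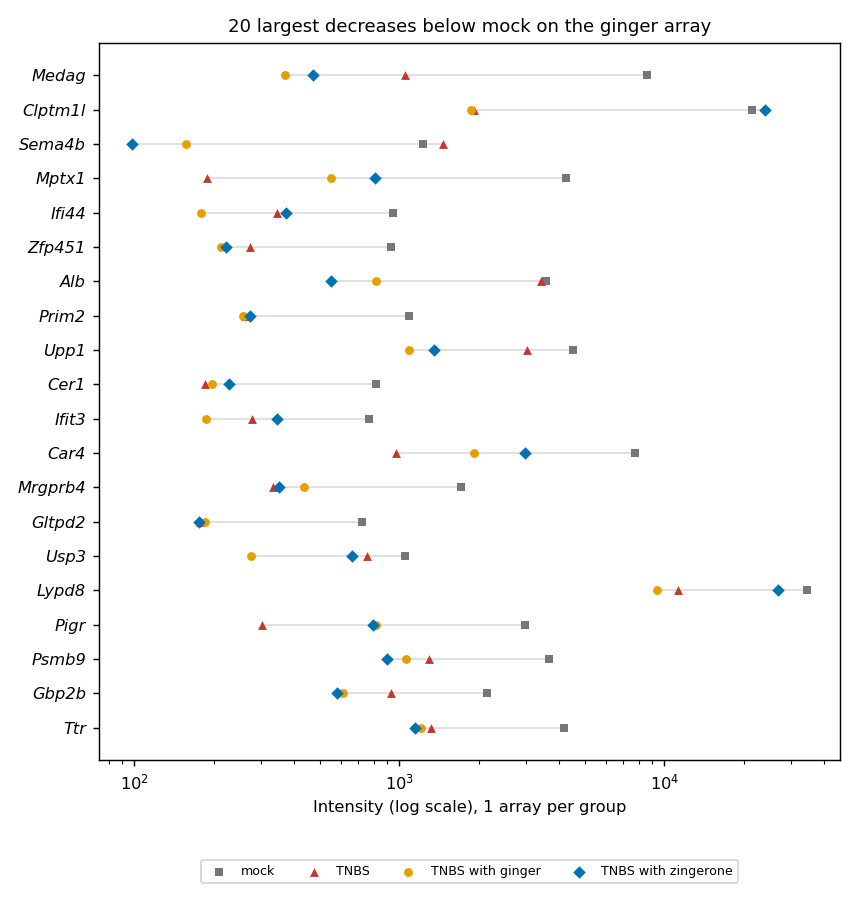
Intensity (x axis, log scale) of the 20 genes farthest under mock on ginger with TNBS, with 1 symbol per array for mock, TNBS, ginger with TNBS and zingerone with TNBS. Ginger lies 3.45-fold (Ttr) to 23.2-fold (Medag) left of mock, and the zingerone symbol of Clptm1l sits beside mock.

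Some genes of plasma proteins, made mainly in liver, were lower. Alb, serum albumin, read 3566 on mock, 3412 on TNBS, 819 on ginger with TNBS and 553 on zingerone with TNBS, 4.35-fold lower on ginger than on mock. Ttr, a thyroid hormone carrier, read 4169 on mock, 1316 on TNBS, 1209.87 on ginger with TNBS and 1146 on zingerone with TNBS, 3.45-fold lower. The fibrinogen chain Fgb read 833 on mock, 1071.5 on TNBS, 254.5 on ginger with TNBS and 189 on zingerone with TNBS, 3.27-fold lower, and Apoa2 was 2.14-fold lower (from 707 to 330.25). For Alb and Fgb the TNBS array sat near mock while ginger and zingerone were low. Haptoglobin, Hp, which is also made by inflamed tissue and stored in neutrophils, read 1195 on mock, 30534 on TNBS, 4949.75 on ginger with TNBS and 8544 on zingerone with TNBS, 4.14-fold higher. Of 15 members 4 were lower and 1 was higher, with a median of -0.31. Some other members were dim on both arrays, such as Fgg (156 and 126) and Plg (162 and 177).

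Genes of other tissues that a dissected colon can carry were mostly near mock. Of 14 adipocyte markers, Fabp4, a fatty acid carrier of fat cells, endothelium and macrophages, was called at 4159.5 on mock, 45906 on TNBS, 9969 on ginger with TNBS and 19855 on zingerone with TNBS, 2.40-fold higher on ginger. Adipoq (518 and 460.5), which is specific to fat cells, read a little under mock, and the list's median was -0.03. Of 14 exocrine pancreas genes none was called, the median was -0.05, and Clps had the largest difference (11211 and 7056). Of 15 skeletal muscle genes, Acta1 was called (from 265 to 547), and the median was -0.04. Of 3 red blood cell genes on the array none was called, the median was -0.35, and Slc4a1 read 1430.25 and 820.5.

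Muscle and nerve gave few calls. Of 16 smooth muscle genes, Smtn, a contractile protein, was lower (1927 on mock, 488 on TNBS, 925 on ginger with TNBS and 781 on zingerone with TNBS, 2.08-fold), and the median was -0.10. Actg2, the enteric smooth muscle actin, read 10858 on mock and 9173.5 on ginger. Vip, a neuropeptide of inhibitory neurons, was the 1 called of 17 neuron and glia markers, at 286 on mock, 942 on TNBS, 717 on ginger with TNBS and 446 on zingerone with TNBS, 2.51-fold higher, with a list median of 0.02. Gcg, the proglucagon gene of L cells, was the 1 called of 16 enteroendocrine markers, at 2082 on mock, 4169 on TNBS, 4527 on ginger with TNBS and 3471 on zingerone with TNBS, 2.17-fold higher, with a median of 0.17. Pyy (24488.5 and 32239), another L cell hormone, was within 2-fold. Of 12 mast cell and eosinophil markers, the mast cell protease Mcpt1 was lower (from 484 to 212) and the eosinophil peroxidase Epx was higher (from 157.5 to 474), with a median of 0.01. Mcpt1 read 196 on TNBS and 202 on zingerone with TNBS, so mock alone was high. For Epx ginger alone was high.

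Proliferation and metabolism stayed near mock. Of 21 cell division genes and 15 crypt base and stem cell genes none was called, with medians of 0.13 and -0.05. Plk1, a mitotic kinase, had the largest difference of the first list (1244.5 and 2117) and Sox9, a crypt transcription factor, of the second (1308 and 1021). All 15 cholesterol synthesis genes read under mock, none by 2-fold, with a median of -0.18, and Idi1 had the largest difference (3590.5 and 2234). Of 26 xenobiotic metabolism genes and 20 genes of fatty acid oxidation and ketogenesis none was called, with medians of -0.02 and -0.03. Cyp4f14 had the largest difference among the former (1404 and 873). Angptl4 had it among the latter, but its 3 probes differed in sign and only 1 of them, 375 on mock and 1238 on ginger, passed 2-fold. Of 18 clock genes, Dbp, a clock output gene, was lower at 2670.25 on mock, 368 on TNBS, 1187 on ginger with TNBS and 1612.5 on zingerone with TNBS, 2.25-fold on ginger, with a list median of -0.01. Of 13 reference genes none was called, the median was 0.06, and Pgk1 had the largest difference (6365.5 and 11016.5). Gapdh read 149 and 151, so dim that its probe says little.

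**Figure D5:**
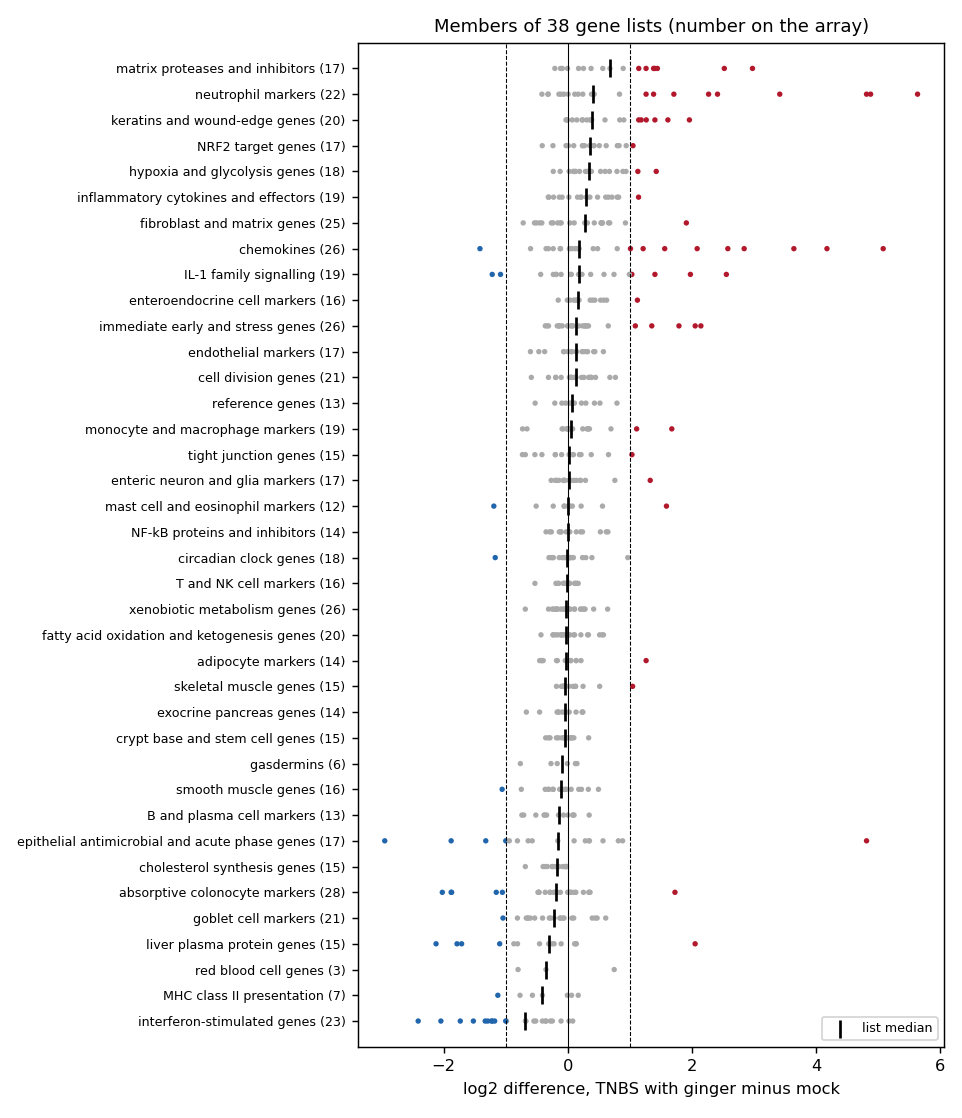
Log2 difference, ginger with TNBS minus mock (x axis), of every member on the array of 38 gene lists (y axis, number of members in brackets), with a bar at each list's median and coloured points at least 2-fold apart. Medians run from -0.68 for interferon-stimulated genes to 0.68 for matrix proteases and inhibitors, and most members of most lists lie between the dashed 2-fold lines.

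Among the deepest decreases were genes of no list. Medag, a gene of fat cell differentiation, read 8597 on mock, 1053 on TNBS, 371 on ginger with TNBS and 471.5 on zingerone with TNBS, 23.2-fold lower on ginger. Medag rests on 1 probe, and mock alone was high, 8.16-fold above TNBS, the nearest array. The TNBS, ginger and zingerone arrays differed too much from each other for the probe to be set aside. Clptm1l, a membrane protein, read 21509.5 on mock, 1916 on TNBS, 1859.5 on ginger with TNBS and 23979.5 on zingerone with TNBS, 11.6-fold lower, with the TNBS and ginger arrays low and the mock and zingerone arrays high. Upp1, uridine phosphorylase, read 4532 on mock, 3023 on TNBS, 1089 on ginger with TNBS and 1353 on zingerone with TNBS, 4.16-fold lower. Zfp451 (from 928 to 212), Prim2 (from 1086 to 258), Cer1 (from 814 to 195.5), Mrgprb4 (from 1709 to 435) and Gltpd2 (from 722 to 184) were 4.38-fold, 4.21-fold, 4.16-fold, 3.93-fold and 3.92-fold lower. For each of these 5 genes the TNBS, ginger and zingerone arrays were alike and mock alone was high, short of the 4-fold distance at which a probe was set aside.

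Some genes differed on ginger although TNBS alone lay within 0.50 of mock on the log2 scale. Hsh2d, an adaptor of lymphocyte signalling, read 677 on mock, 893 on TNBS, 4736 on ginger with TNBS and 544.5 on zingerone with TNBS, a log2 difference of 2.81 on ginger. Slc10a1, a bile acid transporter of liver, read 132 on mock, 134 on TNBS, 516.5 on ginger with TNBS and 109.75 on zingerone with TNBS, and Rgs12, a regulator of G protein signalling, 245 on mock, 232.5 on TNBS, 930 on ginger with TNBS and 217.5 on zingerone with TNBS. Lancl3 (153 on mock and 503 on ginger) and Epx showed the same pattern. Zfp64 has 2 probes, of which 1 read 549 on mock and 9376 on ginger and the other 161.75 and 159.5. For all of these the zingerone array, too, lay near mock, so the call rests on the ginger array alone.

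On the lower side, Sema4b, a semaphorin, read 1226 on mock, 1458 on TNBS, 156 on ginger with TNBS and 98.2 on zingerone with TNBS, 7.85-fold lower on ginger. Usp3, a histone deubiquitinase, read 1047.5 on mock, 755 on TNBS, 275 on ginger with TNBS and 661 on zingerone with TNBS, 3.81-fold lower. Tnfaip6, a hyaluronan-binding protein, read 612 on mock, 591 on TNBS, 248.5 on ginger with TNBS and 223 on zingerone with TNBS, 2.46-fold lower, and Rbis was 2.15-fold lower (from 7353 to 3412). Unlike the higher genes, Sema4b, Tnfaip6, Rbis, Alb and Fgb were low on both arrays of mice given a ginger product, and Usp3 was lowest on ginger.

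The probes set aside include some of the widest differences. A probe was set aside if its value on 1 array was 4-fold or more away from every other array, and those 3 lay within 0.50 of each other on the log2 scale. This held for 43 named probes and left 27 genes with none. On the ginger array 11 stood out, all bright, led by Mesp1 (117 on mock and 5979 on ginger, 51-fold), Hsd17b14 (11.3-fold), Opn1sw (10.3-fold), Asph (9.86-fold), Natd1 (8.65-fold) and Gng8 (8.1-fold). On the mock array 8 were bright and 7 were dim. Fmc1 read 86.5 on mock and 3832, 4527 and 5388 on TNBS, ginger and zingerone, and Slc26a1, a sulfate transporter, read 8113 on mock and 193.5 on ginger. Trp53bp1 (30.5-fold lower on ginger), Pomgnt1 (11.1-fold lower), Ccdc122 (9.46-fold lower) and Cyb5r3 (16.4-fold higher) followed. In all, 18 of the 43 probes were at least 2-fold higher on ginger than on mock and 8 were lower. The rule fixes these counts: the higher probes are those bright on ginger or dim on mock, and the lower ones those bright on mock. With 1 array per group, a probe that stands apart on mock alone and a gene that differs between mock and all 3 TNBS groups cannot be told apart.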

How the data were processed

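Colon RNA of mock mice and of mice given TNBS with ginger extract was compared on 1-colour arrays, 1 per group. The labelled material was 5 µg of total RNA with Cy3 dye, per the labels. The deposited table holds 1 linear intensity per probe and array. The submitters' processing notes name limma with no version or role, and how background was treated or arrays were normalized is not given in the sources used here. Once sorted, the deposited intensity columns agree to within 1.84%, which is what quantile normalization gives, so very bright values carry mostly rank.

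Of 29922 probes, 21020 carry 1 gene symbol in the platform annotation, none carries several and 8902 none. Symbols were brought up to date through the RefSeq gene table of GRCm38.p6: 17558 were current, 3410 were updated and 52 were kept. Values were put on a log2 scale without a pseudocount, and probes of a gene were averaged after probes that stand apart on 1 array had been set aside. Differences were computed with Python 3.11.15, numpy 2.4.6 and pandas 2.3.3, and the steps were tested on simulated data. Figures were drawn with matplotlib 3.10.9. No test was run.

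The members and the 38 gene lists were chosen with earlier results of these data known. Named genes are the 20 largest increases and decreases, up to 4 called members of each list or else its most distant member, the 6 largest increases and decreases with TNBS within 0.50 (log2) of mock, the 6 most distant probes set aside on ginger and on mock, and a fixed set of inflammation and colonocyte genes. Uninformative symbols and olfactory and vomeronasal receptors were skipped. Other genes named were chosen after their values were seen. Alternatives covered the normalization, a floor, background subtraction, the brightness filter, the probe rule and the fold threshold.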

Additional observations from a re-analysis of the deposited data

Results flagged for a closer look

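Probes without a gene symbol stood outside the comparison, and some of them differed as well. Among 2812 unnamed probes at or above the median on either array, after those standing apart on 1 array had been set aside, 42 were at least 2-fold higher on ginger than on mock and 33 were at least 2-fold lower. These shares are close to those of the 9337 measured named genes, of which 1.55% were higher and 1.08% lower. Mock is the control here and there is 1 array of it, so no spread is known for these probes.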

How the results depend on the processing

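The numbers of called genes were within 1.5 times the reported 145 higher and 101 lower under quantile normalization, a floor at the 25th percentile, array medians made equal, no brightness filter, a filter at the 75th percentile, the median required on both arrays, the brightest probe per gene, probes that stand apart kept, and a 2.5-fold limit for setting them aside; they ran from 103 to 169 higher and from 75 to 110 lower. Subtracting each array's 5th percentile gave 261 higher and 263 lower genes. A 1.5-fold threshold gave 477 and 515, and a 3-fold threshold 54 and 31. Over the measured members of the gene lists, 732 recomputed counts stayed within 1.5 times the reported one, 15 were above that and 13 below. No named gene that was called turned its direction. Some list medians changed sign where the median was required on both arrays. That of the interleukin-1 genes went from 0.28 to -0.19, and that of the epithelial defence genes from 0.10 to -0.27. The medians of the neuron and glia markers (0.14 to -0.05) and the skeletal muscle genes (0.16 to -0.06) also changed sign. With the 2.5-fold limit, 135 of the 145 higher and 90 of the 101 lower genes stayed called. Ndrg1 was 0.98 above mock on the log2 scale there. Epx, Slc10a1, Rgs12, Lancl3, Ttr, Prim2, Cer1, Mrgprb4, Gltpd2 and Zfp451 were among the called genes whose only probe that limit sets aside. With the 5th percentile subtracted, Il11 (1.04) and Cd3d (-1.16) passed 2-fold on the log2 scale. No paired analysis was possible because each group has 1 array, and no array could be left out. Each group's own variation, any background left in the signal and the disagreement between probes of a gene limit every value.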

Other observations

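Single genes of mitochondrial proteins are given as values only. They were picked out after their values were seen, from no fixed list, so they say nothing of mitochondrial genes as a group. Atp5b, a subunit of ATP synthase, read 13062 on mock, 3395.5 on TNBS, 5874 on ginger with TNBS and 18134 on zingerone with TNBS, and complex I subunit Ndufb3 read 3298.5 on mock, 765.5 on TNBS, 1504 on ginger with TNBS and 3186 on zingerone with TNBS. Ndufb7 was 2.15-fold lower on ginger (from 2128 to 988) and Ndufa12 2.07-fold (from 5768 to 2792.5). The mitochondrial ribosome genes Mrpl36 (from 2193 to 1058) and Mrpl18 (from 775 to 377.5) were 2.07-fold and 2.05-fold lower. For Atp5b, Ndufb3 and Mrpl18 the zingerone array lay near or above mock.

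On the higher side, also picked out afterwards, were the metal-binding metallothioneins Mt2 (8324 on mock, 60415 on TNBS, 30416.5 on ginger with TNBS and 33341 on zingerone with TNBS, 3.65-fold higher on ginger) and Mt1 (from 14466 to 39028.5, 2.70-fold). The transcription factor Cebpb, which acts in acute phase and myeloid gene expression, read 984 on mock, 19442 on TNBS, 4546.5 on ginger with TNBS and 3868 on zingerone with TNBS, 4.62-fold higher. The calcium-dependent membrane binders Anxa2 (from 21063 to 45051) and Anxa5 (from 837 to 1810.25) were 2.14-fold and 2.16-fold higher. The small heat shock protein Cryab read 893 on mock, 11570.2 on TNBS, 3714 on ginger with TNBS and 1483.5 on zingerone with TNBS, 4.16-fold higher, and the neuropeptide Gal, galanin, was 2.95-fold higher (from 652 to 1925).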
